A study of Mus musculus with 6 samples.

Results

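The collagen genes other than those of type IV were followed in aggregates of mouse embryonic stem cells before and after pre-differentiation. Members were the genes whose array annotation gives a single symbol made of Col, a number, the letter a and a number, with the Col4a genes left out. A gene was read from the row of its symbol with the highest mean signal over all 6 arrays. This gave 36 members of the 30176 genes that a single-symbol row represents. The rows of Col7a1 and Col6a4 carry a second symbol and were left out.

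Collagens are triple helices of 3 chains, each chain encoded by its own gene. Fibril-forming collagens make the cross-banded fibrils of connective tissue, type I being the main collagen of bone, skin, tendon and scar, and type III its partner in distensible tissues such as vessel wall. Other types sit on the fibril surface, form beaded filaments around cells or span the cell membrane, and type IV makes the network of basement membranes. In the heart the interstitial fibrils of types I and III are made mainly by fibroblasts.

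The cells were of the R1 mouse embryonic stem cell line, grown as aggregates inside core-shell microcapsules. The before group, 3 arrays, had been kept for 7 days in embryonic stem cell medium with leukaemia inhibitory factor. The after group, 3 arrays, had the same 7 days and then 3 days of pre-differentiation in a medium with BMP4 and bFGF, growth factors used to direct cells to mesoderm and the early cardiac lineage. Growth factors, medium and days of culture therefore changed together and cannot be told apart. The labels call all samples biological replicates, and they come from 1 cell line. Total RNA was hybridised to Clariom D arrays, and values are the deposited log2 signals, on which a difference of 1 is a doubling.

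The array medians lay between 4.17 and 4.47. With no detection call in the data, a log2 signal of 4.24 was taken as the background level, below which the mean signal of 95% of 1529 chemosensory (olfactory or vomeronasal) receptor genes lay. Markers of the undifferentiated stem cell were bright before pre-differentiation, and after replicate 1 stood apart from the other two in the same group. Pou5f1, a transcription factor of pluripotent cells, had log2 signals of 15.25, 14.81 and 15.71 on before replicates 1, 2 and 3, and 14.48, 6.18 and 6.90 on after replicates 1, 2 and 3. Nanog, another such factor, had after values of 14.02, 5.05 and 6.10 in the same order. The median of the 9 undifferentiated markers was between 14.38 and 15.71 before, and was 13.47, 6.18 and 6.90 on after replicates 1, 2 and 3. Calls among the members and among the genes of collagen synthesis are therefore given with and without it. Those of the other lists are given with all 6 arrays only. The median log2 change over all genes was -0.16, and centring each array on its median moved the gene changes up by 0.18.

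With all 6 arrays, limma called 0 of 36 collagen genes higher and 0 lower in the after group at its adjusted threshold of 0.05, beside 1.24% of all genes called higher and 0.65% called lower. Without adjustment, at the same threshold, 5 members were higher (Col1a1, Col3a1, Col1a2, Col12a1 and Col11a1), beside 10.9% of all genes, and 1 was lower (Col6a6), beside 19.7%. The after arrays were all above the highest before array for 11 members, beside 11.8% of all genes. They were all below the lowest before array for 7 members, beside 28.2% of all genes. The median log2 change of the members was 0.09. The members differed widely in the size of their change. In 11 members the mean log2 signal was higher after pre-differentiation by at least 1, beside 2546 of all 30176 genes. Of the other 25 members 24 changed by less than 0.5 in size. With 3 arrays against 3, an exact permutation test cannot give a two-sided p below 0.1, which is what each member with separate groups had. In bulk RNA, fewer cells of a type and less RNA per cell cannot be told apart.

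**Figure D1:**
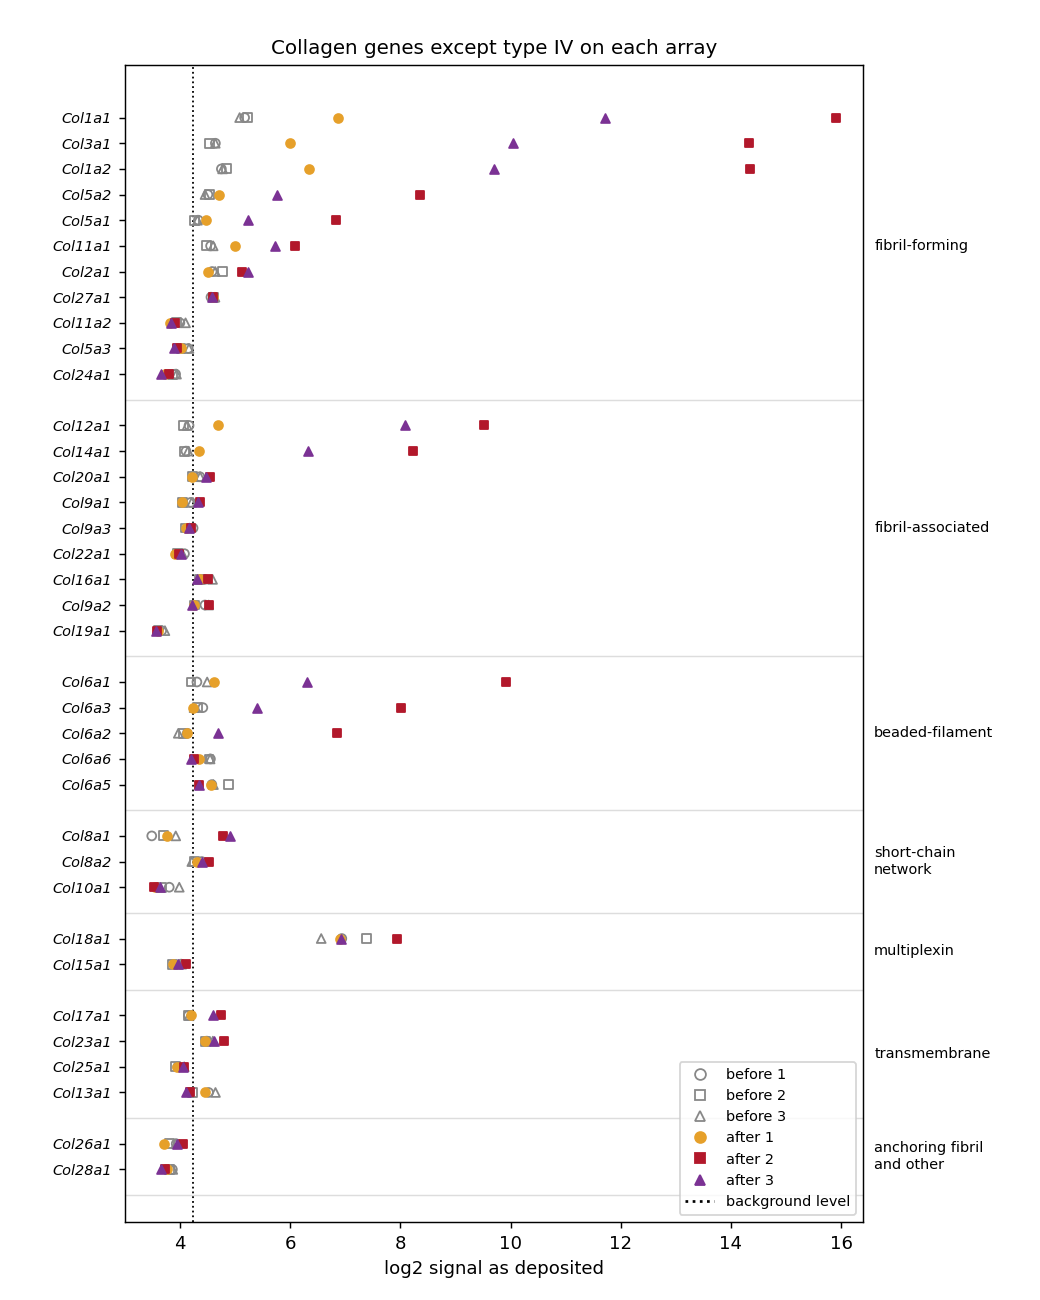
Deposited log2 signal (horizontal axis) of each of the 36 collagen genes on 3 before arrays (open grey) and 3 after arrays (filled, coloured by replicate), grouped by collagen class, with the background level of 4.24 as a dotted line. The before points lie close together and mostly near the line, while Col1a1 reaches 15.90 on after replicate 2 and 6.86 on after replicate 1.

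The fibril-forming collagens held the members of largest change. Col1a1, which encodes the alpha 1 chain of type I collagen, had log2 signals of 5.17, 5.23 and 5.08 on before replicates 1, 2 and 3, and 6.86, 15.90 and 11.71 on after replicates 1, 2 and 3. All after arrays were above all before arrays, but after replicate 1 was far nearer to the before values than the other two. The mean went from 5.16 ± 0.07 to 11.49 ± 4.53 (SD, n = 3), a log2 change of 6.33 (standard error 2.16, 95% interval 1.03 to 11.63, limma adjusted p = 0.156). By size of the mean increase it ranked 24 among 30176 genes.

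Col1a2, whose alpha 2 chain joins the alpha 1 chain in type I collagen, had values of 4.75, 4.85 and 4.78 before and 6.34, 14.34 and 9.71 after. The order of the after arrays was that of Col1a1, with no overlap between groups. Its log2 change was 5.34 (standard error 1.91, 95% interval 0.64 to 10.04, adjusted p = 0.167). Col3a1, the only chain of type III collagen, had values of 4.64, 4.53 and 4.64 before and 5.99, 14.33 and 10.04 after. Again replicate 2 was the highest and replicate 1 the lowest of the after arrays, and the groups did not overlap. The log2 change was 5.51 (standard error 1.99, 95% interval 0.63 to 10.40, adjusted p = 0.168).

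The stretches before the starts of Col3a1 and Col1a2 are shown because these members moved together from array to array, and because the promoter table used here gives both. They are the 250 bases before the RefSeq start on the plus strand of GRCm38.p6, at chr1:45311288-45311537 for Col3a1 and at chr6:4505368-4505617 for Col1a2, with 3 words, each searched on both strands, in capitals. The words are CCAAT, the letters TATAAA of the TATA box, and the letters GGGCGG of the GC box.
Col3a1: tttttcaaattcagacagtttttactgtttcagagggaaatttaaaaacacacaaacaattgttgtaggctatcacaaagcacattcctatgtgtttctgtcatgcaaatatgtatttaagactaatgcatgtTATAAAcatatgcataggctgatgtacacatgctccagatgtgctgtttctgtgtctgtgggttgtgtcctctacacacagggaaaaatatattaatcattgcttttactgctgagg
Col1a2: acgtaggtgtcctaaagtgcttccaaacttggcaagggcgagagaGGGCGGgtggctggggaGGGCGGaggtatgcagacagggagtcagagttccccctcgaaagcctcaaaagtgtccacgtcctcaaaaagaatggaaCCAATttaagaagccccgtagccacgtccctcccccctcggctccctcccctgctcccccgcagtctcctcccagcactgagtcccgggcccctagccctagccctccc
In the Col3a1 stretch TATAAA begins 117 bases upstream of the start, and the GC share is 35.2%. In the Col1a2 stretch CCAAT begins 109 bases upstream and GGGCGG begins 205 and 188 bases upstream, and the GC share is 62.0%. The median GC share of all such stretches was 52.0%. These chains, though alike in their values, therefore share none of the 3 searched words. Of 36 members 28 had a promoter in the table. CCAAT was in 7 of the 28 members and in 34.5% of 27025 promoters, TATAAA in 5 and in 13.0%, and GGGCGG in 16 and in 32.9%. A match is a run of letters and no evidence of binding.

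Type V and type XI collagens form thin fibrils and the cores of type I, III and II fibrils. Col5a2 (type V, alpha 2) had log2 signals of 4.51, 4.54 and 4.46 before and 4.71, 8.36 and 5.76 after, a log2 change of 1.78 (adjusted p = 0.270). Col5a1 (type V, alpha 1) had 4.34, 4.27 and 4.32 before and 4.47, 6.83 and 5.24 after, a log2 change of 1.21 (adjusted p = 0.251). Both were separate between groups, by a margin that was small on after replicate 1 and large on after replicate 2. Col11a1, the alpha 1 chain of type XI collagen of cartilage and other tissues, had 4.56, 4.48 and 4.60 before and 5.0, 6.09 and 5.72 after. Its after arrays were the least spread of the 11 members, and its log2 change of 1.05 (standard error 0.28, 95% interval 0.36 to 1.75) had the lowest adjusted p of the family, 0.112.

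The other 5 fibril-forming genes changed little. Col2a1, the fibril collagen of cartilage, had a log2 change of 0.29 with overlapping groups (4.58, 4.77 and 4.64 before, 4.52, 5.13 and 5.23 after). Col27a1, another collagen of developing cartilage, had a log2 change of -0.01, and Col5a3, Col11a2 and Col24a1 had -0.16, -0.16 and -0.18. The last 3 had no group mean above background. Of the 11 fibril-forming genes 6 thus had a log2 change of at least 1, and the median was 1.05.

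Fibril-associated collagens have interrupted helices and lie on the surface of fibrils. Col12a1, which decorates type I fibrils in tendon and other tissue under load, had log2 signals of 4.17, 4.07 and 4.13 before and 4.69, 9.52 and 8.08 after. No before array was above background and every after array was, with after replicate 1 the lowest. The log2 change was 3.31 (standard error 1.19, 95% interval 0.40 to 6.22, adjusted p = 0.166). Against the background level the increase of the mean was at least 9.14-fold. Such a bound, here and below, sets the mean of the after arrays against the background level and leaves out their spread. Col14a1, a related chain of fibril-associated collagen, had 4.11, 4.09 and 4.15 before and 4.35, 8.24 and 6.32 after. Its before arrays were likewise below background, and after replicate 1 exceeded them only slightly. The log2 change was 2.19 (standard error 0.93, 95% interval -0.09 to 4.48, adjusted p = 0.211). By the mean, the increase over the background level was at least 4.19-fold.

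The remaining 7 fibril-associated genes (Col9a1, Col9a2, Col9a3, Col16a1, Col19a1, Col20a1 and Col22a1) had log2 changes between -0.09 and 0.10. Type IX collagen, of which Col9a1 to Col9a3 encode the chains, coats the type II fibrils of cartilage. The median of the class was -0.02, so its 2 high members stood well apart from the rest in size.

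Type VI collagen makes beaded filaments around cells, classically from the alpha 1, alpha 2 and alpha 3 chains. Col6a1 had log2 signals of 4.31, 4.20 and 4.49 before and 4.61, 9.92 and 6.30 after. The groups did not overlap, although after replicate 1 was just above the highest before array. The log2 change was 2.61 (standard error 1.30, 95% interval -0.57 to 5.80, adjusted p = 0.262). Col6a3 had 4.42, 4.32 and 4.26 before and 4.24, 8.01 and 5.39 after, and Col6a2 had 4.13, 4.06 and 3.97 before and 4.14, 6.86 and 4.69 after. For Col6a3 after replicate 1 was below every before array, so it is the only one of the 11 members whose groups overlapped, and Col6a2 was not above background before. Their log2 changes were 1.55 (adjusted p = 0.330) and 1.18 (adjusted p = 0.326). For Col6a2, also below background on after replicate 1, the increase over the background level was at least 1.98-fold, a log2 difference of 0.99, so that its place among the 11 members rests on signal below that level.

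The other type VI chains, Col6a5 and Col6a6, did not share this pattern. Col6a6 had log2 signals of 4.55, 4.53 and 4.55 before and 4.35, 4.26 and 4.21 after, so every after array was lower. Its log2 change was -0.27 (95% interval -0.53 to -0.01, adjusted p = 0.191), and that of Col6a5 was also -0.27, again with every after array lower. These differences were smaller relative to the shift of all genes, at -0.09 and -0.10 under quantile normalization and -0.09 for both under median centring. These genes are adjacent on chromosome 9 in the RefSeq order, as Col6a2 and Col6a1 are on chromosome 10 and Col3a1 and Col5a2 on chromosome 1. Within these last pairs the log2 changes were 1.18 and 2.61, and 5.51 and 1.78. The gene Col18a1, with 2 genes between it and Col6a1, had a log2 change of only 0.29.

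None of the 11 genes of the remaining classes had a log2 change of 1 or more. Among short-chain network collagens, Col8a1, a chain of type VIII collagen in vessel wall and the endothelial membrane of the cornea, had the largest change of this group at 0.78 (adjusted p = 0.209). Its log2 signals were 3.49, 3.69 and 3.92 before and 3.77, 4.78 and 4.91 after. After replicates 2 and 3 were above every before array, while after replicate 1 lay within them. No before array was above background, nor was after replicate 1. Col8a2 had a log2 change of 0.12, and Col10a1, the collagen of hypertrophic cartilage, had -0.25 with no group mean above background.

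Multiplexins are basement membrane collagens that carry sugar chains. Col18a1, whose end fragment is endostatin, was well above background already before pre-differentiation, with log2 signals of 6.94, 7.39 and 6.56 before and 6.90, 7.93 and 6.92 after. The groups overlapped and the log2 change was 0.29 (95% interval -0.59 to 1.17). Col15a1, the other multiplexin, had 0.02. Of the 4 transmembrane collagens, Col17a1, a hemidesmosome protein of epithelia, was alone in having separate groups. It had 4.15, 4.15 and 4.17 before and 4.20, 4.75 and 4.61 after, a log2 change of 0.36. Its before arrays and after replicate 1 were below background, so this separation rests in part on signal below that level. Col13a1, Col23a1 and Col25a1 had log2 changes of -0.21, 0.11 and 0.04, and the ungrouped Col26a1 and Col28a1 had 0.01 and -0.13.

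**Figure D2:**
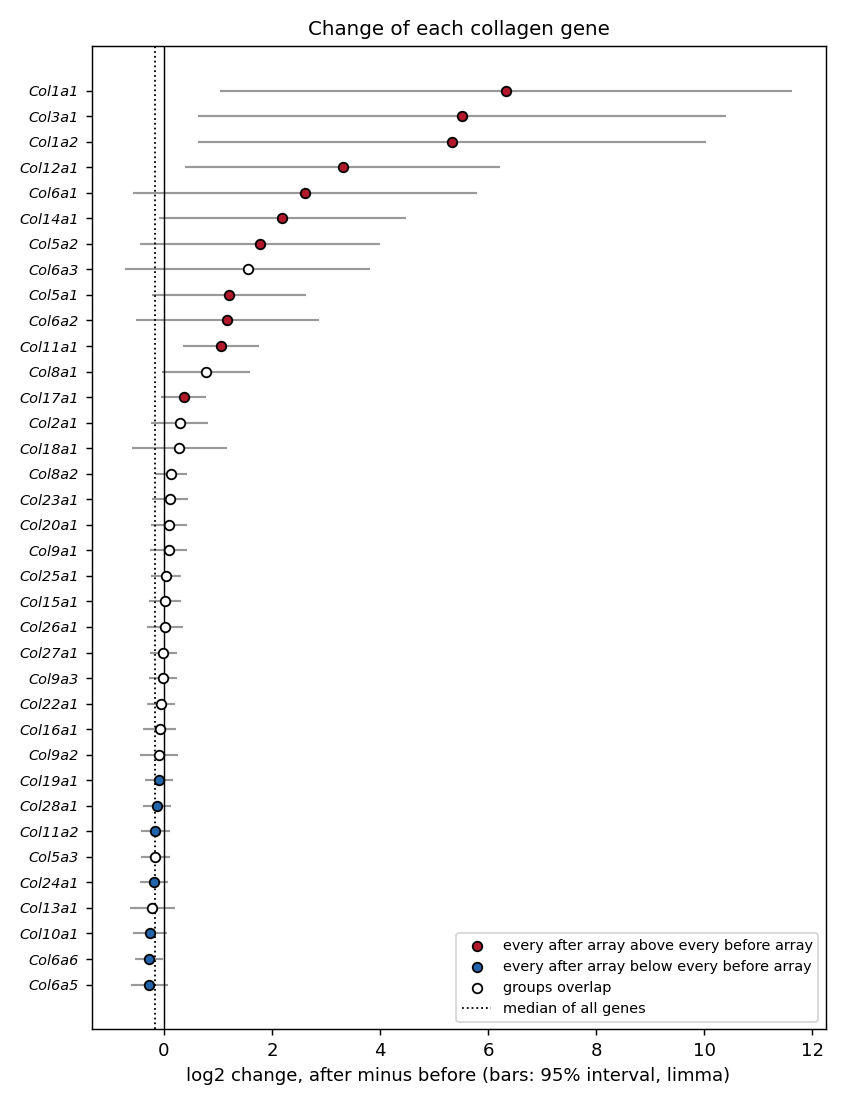
Log2 change of each of the 36 collagen genes, after minus before (horizontal axis), with 95% intervals from limma. Red points are genes whose after arrays all lie above the before arrays, blue points those whose after arrays all lie below, and open points overlap. The changes run from -0.27 to 6.33, and the intervals of the genes of largest change are the widest.

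Median centring raised the gene changes alike by 0.18, and quantile normalization nearly so, which by construction turns the sign of smaller decreases. No direction is therefore given to 9 of the 14 members with a lower mean (Col27a1, Col9a3, Col22a1, Col16a1, Col9a2, Col19a1, Col28a1, Col11a2 and Col5a3). The 11 members with a log2 change of at least 1 kept their direction under both. Of all members 11 had no group mean above background and 13 were above it on every array.

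The 11 members were alike in the order of the after arrays. All were highest on after replicate 2, lower on after replicate 3 and lowest on after replicate 1. This order held for 11 of the other 25 members and for 4826 of all 30176 genes. It held for 30.3% of the 3559 genes whose after arrays all lay above the before arrays. The median log2 signal of the 11 members with a change of at least 1 was 4.42, 4.32 and 4.46 on before replicates 1, 2 and 3. On after replicates 1, 2 and 3 it was 4.69, 8.36 and 6.30. From after replicate 1 to after replicate 2 the median difference over these genes was 3.88, beside -0.04 over all genes. The before arrays hardly differed, with SDs of at most 0.41 over all 36 members, while the after SDs of the 11 genes ran from 0.55 to 4.53. For the other 25 members the after SD was at most 0.62. The 11 genes were picked by their mean change, so their common direction is no test. A high value on after replicate 2 raises that mean, so their common order is no test either.

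Measured against the before mean, Col1a1 was higher by 1.70, 10.74 and 6.55 log2 units on after replicates 1, 2 and 3. Col3a1 was higher by 1.38, 9.72 and 5.44, and Col1a2 by 1.55, 9.55 and 4.91. The type I and III chains thus differed from the before arrays on all 3 after arrays, and by an amount that varied several units between them. Over the 11 genes the difference on after replicate 1 ran from -0.09 for Col6a3 to 1.70 for Col1a1.

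Leaving out after replicate 1 changed the calls. Without it 7 members were higher by limma, namely Col1a1, Col3a1, Col1a2, Col12a1, Col14a1, Col11a1 and Col8a1, beside 7.80% of all genes. Col1a1 then had a log2 change of 8.65 (adjusted p = 0.019), Col3a1 of 7.58 (adjusted p = 0.028) and Col1a2 of 7.23 (adjusted p = 0.038). Col12a1 changed by 4.68 (adjusted p = 0.007) and Col6a1, which did not pass, by 3.78 (adjusted p = 0.098). Without after replicate 2 the changes of Col1a1, Col3a1 and Col1a2 were 4.12, 3.41 and 3.23. In that setting, and without after replicate 3, before replicate 1 or before replicate 3, 0 of all genes were called, so the calls there say nothing of the collagens. Without before replicate 2, 0 members were called, beside 0.335% of all genes higher.

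**Figure D3:**
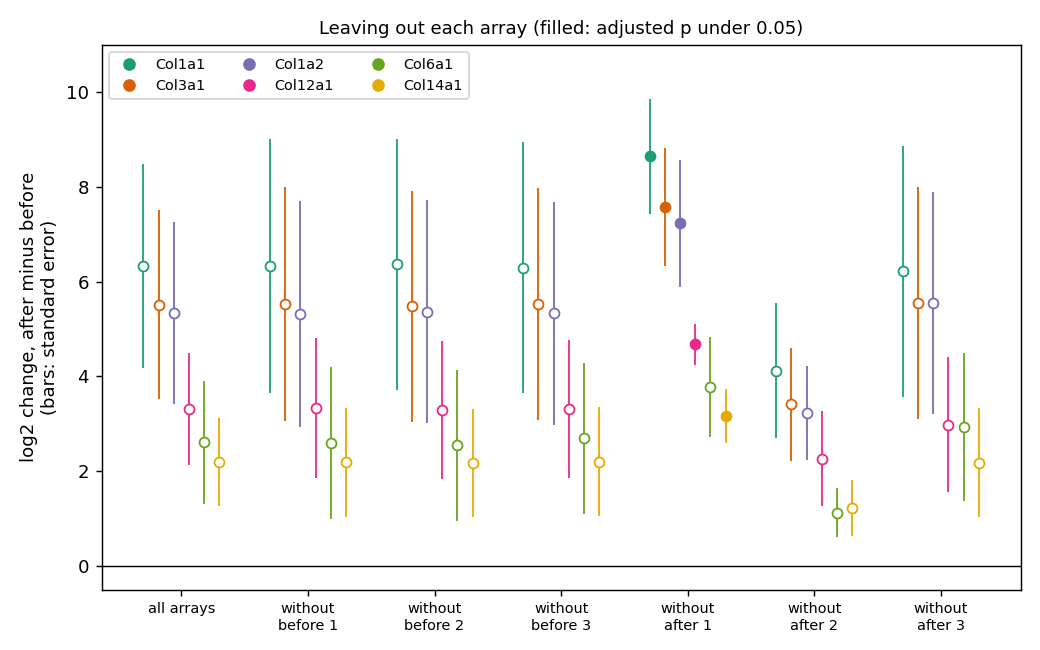
Log2 change, after minus before (vertical axis), of the 6 collagen genes with a change of at least 2, with all arrays and with each array left out in turn. Bars are standard errors and filled points have an adjusted p under 0.05. Points are filled only without after replicate 1, where 5 of the 6 genes passed, and Col1a1 runs from 4.12 without after replicate 2 to 8.65 without after replicate 1.

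Collagen chains are modified, folded and cross-linked by a shared set of proteins. Of 32 listed genes of synthesis and cross-linking 28 were measured, and with all 6 arrays 8 were higher and 0 lower by limma after pre-differentiation, beside 1.24% and 0.65% of all genes. The median log2 change was 1.27. P3h2, a prolyl 3-hydroxylase, had log2 signals of 6.61, 9.0 and 7.14 before and 12.71, 13.21 and 13.70 after, a mean increase of 5.62 log2 units (standard error 0.65, limma adjusted p = 0.037). P4ha1, a catalytic subunit of the prolyl 4-hydroxylase that makes the helix stable, had 8.86, 9.61 and 9.85 before and 13.85, 14.59 and 15.06 after, a mean increase of 5.06 (standard error 0.39, limma adjusted p = 0.024). Plod2, a lysyl hydroxylase, had 10.06, 10.68 and 10.63 before and 14.42, 14.85 and 15.45 after, a mean increase of 4.45 (standard error 0.31, limma adjusted p = 0.024). In these 3 enzymes after replicate 1 was close to the other after arrays, unlike in the type I and III chains. They were named as genes past the threshold, which favours a small spread, so this contrast is no result about the list. In the same list Bmp1, which did not pass, had after values of 6.35, 9.01 and 8.62. The array order of Col1a1 held for 11 of the 28 genes, beside 4826 of all 30176 genes. Creb3l1, a membrane-bound transcription factor known to drive type I collagen genes in bone, increased by 5.05 log2 units (limma adjusted p = 0.049), with after values of 10.32, 13.15 and 12.61. The other genes that passed were P4ha2, Serpinh1, Plod1 and P3h1, with log2 changes from 3.78 to 1.57. Serpinh1 is the chaperone specific to collagen. Of the 28 genes 5 had a lower mean after pre-differentiation, beside 20605 of all 30176 genes. In 2 of them every after array was below every before array, beside 28.2% of all genes. The largest decrease was that of Pcolce2, with a log2 change of -2.77 (limma adjusted p = 0.090).

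The lysyl oxidases, which cross-link finished fibrils and were picked here after their values were seen, did not all behave alike, and 0 of the 4 measured passed. Lox had log2 signals of 4.13, 4.26 and 4.57 before and 5.42, 11.33 and 8.16 after, a mean increase of 3.98 (standard error 1.41, limma adjusted p = 0.165). Loxl1 had 5.26, 5.40 and 5.04 before and 5.51, 10.47 and 7.75 after, a log2 change of 2.67 (adjusted p = 0.225). Both had the array order of the 11 collagen genes. Loxl3 and Loxl4 had overlapping groups, with log2 changes of 0.76 and 0.15, and Loxl4 had no before array above background. Of the 28 measured synthesis genes 15 were higher without after replicate 1, beside 7.80% of all genes, and 4 without before replicate 2, beside 0.335%. With any other single array left out 0 were called, as were 0 of all 30176 genes.

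**Figure D4:**
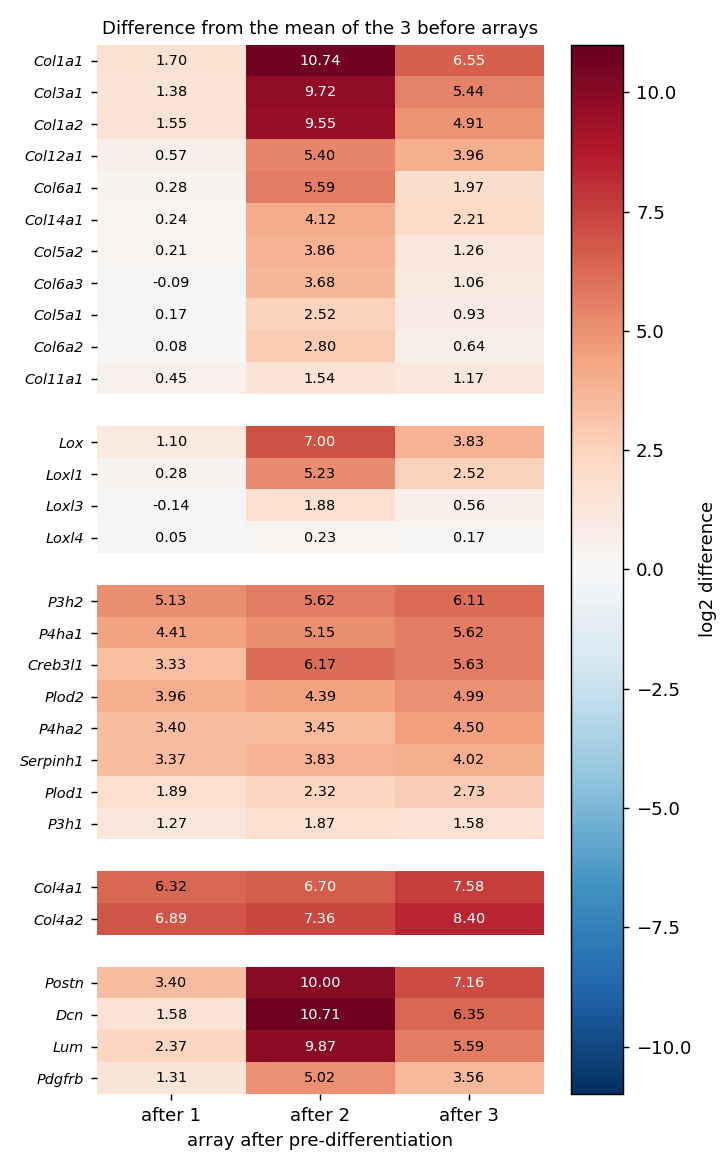
Log2 difference of each after array from the mean of the 3 before arrays, by colour and printed value, for the 11 collagen genes with a change of at least 1, the lysyl oxidases, the 8 genes of collagen synthesis that passed the test, Col4a1 and Col4a2, and 4 fibroblast and mesenchyme markers. Col1a1 goes from 1.70 on after replicate 1 to 10.74 on after replicate 2, whereas P4ha1 stays between 4.41 and 5.62 and Col4a1 between 6.32 and 7.58.

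Of the 6 type IV genes, which encode chains of basement membrane, 2 passed, Col4a1 and Col4a2, beside 1.24% of all genes called higher. Col4a1 had log2 signals of 7.66, 7.71 and 6.85 before and 13.72, 14.11 and 14.99 after, a mean increase of 6.87 (standard error 0.40, limma adjusted p = 0.019). Its standard error was far below the 2.16 of Col1a1, whose mean change was of like size. Col4a2 increased by 7.55 log2 units (limma adjusted p = 0.020). Col4a5, by contrast, had the array order of the 11 interstitial genes, with log2 signals of 4.13, 4.17 and 4.15 before and 4.34, 6.09 and 5.45 after. It did not pass, and as no before array was above background the increase of its mean is a bound, at least 2.07-fold. Col4a3, Col4a4 and Col4a6 were not above background on any array. Whether the changes of types I and IV differ was not tested.

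Among proteins that bind collagen, 0 of 9 measured receptors passed. The smallest p values were those of Itgb1, the beta 1 integrin chain (log2 change 1.79, adjusted p = 0.114), and Ddr1, a collagen-activated tyrosine kinase (1.57, adjusted p = 0.149). None of the 8 small leucine-rich proteoglycans, which bind fibrils and limit their growth, passed, although their median log2 change was 3.43. Bgn (biglycan) had log2 signals of 4.39, 4.77 and 4.61 before and 6.65, 13.63 and 10.74 after, a change of 5.75 (adjusted p = 0.127). Lum (lumican) had 3.97, 3.81 and 3.91 before and 6.27, 13.77 and 9.49 after, a change of 5.95 (adjusted p = 0.133). As no before array of Lum was above background, the increase of its mean is a bound, at least 48.7-fold. The order of the after arrays of both was that of Col1a1, as it was in 7 of the 8 proteoglycans, beside 4826 of all 30176 genes.

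Markers of other cell types moved in the same arrays, and their part in the collagen values was not tested. Of 9 fibroblast and mesenchyme markers 8 were measured, and 0 passed the threshold. All 8 had a higher mean after pre-differentiation, beside 9571 of all 30176 genes, and 7 had the array order of the collagen genes, beside 4826. Their summed signal, on the log2 scale, was between 7.34 and 7.42 before and between 9.09 and 16.16 after, and none stayed below background on every after array. Postn (periostin), a matrix protein of fibroblasts, had 4.51, 4.35 and 4.48 before and 7.85, 14.45 and 11.61 after, a log2 change of 6.86 (adjusted p = 0.088). Pdgfrb, a growth factor receptor of mesenchyme, had the next smallest p, with a log2 change of 3.30 (adjusted p = 0.115). The 2 proteoglycans Dcn and Lum are in this list too. Of the 11 parietal endoderm markers 8 were higher by limma, beside 1.24% of all genes, and the median log2 change of the list was 4.47. Their summed signal was between 15.65 and 15.98 before, most of it from Sparc, and between 18.84 and 19.77 after. The largest changes among those that passed were those of the laminin genes Lamb1 (6.35), Lama1 (5.72) and Lamc1 (4.73) and the receptor gene Pth1r (4.90). Of the 7 cartilage markers 0 passed, and the smallest p values were those of Sox9 (log2 change 3.34) and Hapln1, a link protein of cartilage matrix (1.30). Hapln1 had 4.94, 4.65 and 4.70 before and 4.68, 6.66 and 6.85 after. Acan, which encodes the cartilage proteoglycan aggrecan, had a log2 change of 0.00, and Comp, Matn1 and Snorc were below background on every after array. Their summed signal was between 7.29 and 7.38 before and between 7.50 and 10.23 after, the high values mostly those of Sox9, at 5.39, 9.39 and 9.96 on after replicates 1, 2 and 3. Of the 5 endothelium markers 1, Cdh5, was higher by limma, beside 1.24% of all genes. Pecam1 went the other way, at 9.44, 8.78 and 9.93 before and 8.69, 5.71 and 5.11 after, with every after array lower (adjusted p = 0.151). The summed signal of this list was between 9.27 and 10.11 before, most of it from Pecam1, and between 10.50 and 13.88 after, most of it from Cdh5. Of the 9 undifferentiated markers 8 were lower on after replicates 2 and 3 than on after replicate 1 and every before array. Pecam1 of the endothelium list shared this pattern, and which cells its signal came from was not tested. By limma 0 of the 9 undifferentiated markers passed. Their smallest p values were those of Tdgf1 (log2 change -8.22) and Zfp42 (-6.10). Klf4 was the exception, at 10.04, 10.60 and 11.28 on after replicates 1, 2 and 3. The list had a summed signal between 18.53 and 19.92 before and of 18.59, 11.28 and 12.06 on after replicates 1, 2 and 3. On after replicates 2 and 3 most of that sum was the signal of Klf4.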

How the data were processed

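Total RNA of 3 before and 3 after samples was measured on Clariom D arrays. The log2 signals deposited by the authors were made in Transcriptome Analysis Console. Its version, the summarization, the background correction and the genome build were not given in the sources used here, so no coordinates of array rows are printed. The deposited values were used without further normalization. Of 72688 rows, 31 whose identifier starts with AFFX were left out. The remaining 72657, including 6701 control rows, were fitted in R 4.3.3 with lmFit and eBayes of limma 3.58.1. Tests were two-sided, p-values were adjusted over all these rows by the method of Benjamini and Hochberg, and the threshold was 0.05. Of 65956 transcript clusters, 30638 rows have 1 gene symbol, 2176 several and 33142 none, and only single-symbol rows name a gene. The fit was checked on simulated arrays given the spread of the before arrays only. That check does not cover the wide after spread of the collagen genes with a log2 change of at least 1. Depth does not apply to arrays, and their number limits the precision.

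The members and lists were chosen with earlier results of these data known. Every member is accounted for in its class, and full values were given to Col1a1, Col3a1, any member past the threshold and any with a log2 change of at least 2 in size and separate groups. Members with a log2 change between 1 and 2, and the others whose arrays are given, were chosen after their values were seen. For each other list the named genes are up to 4 of largest change past the threshold or, where none passed, the 2 of smallest p. Other listed genes, such as Pou5f1, Nanog, Klf4, Acan, Pecam1 and Pcolce2, were added after their values were seen. Annotation symbols needed no update. Promoters are from RefSeq (GRCm38.p6). The alternatives were quantile normalization, median centring, a filter on dim rows, control rows left out, a trend with robust variances, Student's test named in the methods for in vitro studies (called the methods' test), a minimum log2 change of 1, averaging the rows of a gene, a replicate block, and the omission of each array in turn.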

Additional observations from a re-analysis of the deposited data

How the results depend on the processing

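The count of collagen genes past the threshold was 0 higher and 0 lower with all 6 arrays. It was 1 higher (Col11a1) and 4 lower (Col28a1, Col11a2, Col24a1 and Col6a6) with the methods' test unadjusted, beside 7.69% of all genes higher and 18.4% lower there and 0 after adjustment, and ranged from 0 to 7 higher when each array was left out, the 7 being without after replicate 1. The median log2 change of the family, 0.09, was 0.27 under quantile normalization, 0.27 under median centring and 0.36 over the 25 members with a group mean above background, with fewer members by construction. Of the 28 synthesis and cross-linking genes 8 were higher with all arrays, beside 1.24% of all genes. With trend and robust variances 5 were higher, beside 0.457%. The methods' test called 13 higher unadjusted, beside 7.69%, and 0 adjusted. When each array was left out 0 to 15 were higher, the 15 being without after replicate 1, beside 7.80%. Lower ones numbered 1 with the methods' test unadjusted, beside 18.4%, and 0 to 2 when each array was left out. The 2 were without after replicate 1, beside 7.48% of all genes lower. The cause was not tested.

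With the replicate block, 0 collagen genes, 0 synthesis genes and 0 of all genes passed. Deviations of same-numbered arrays correlated at -0.03, 0.14 and -0.08 for numbers 1, 2 and 3, and only number 2 correlated best with its own number. With 3 arrays per group these correlations cannot settle whether same-numbered samples belong together, and the labels give only the number. Col1a1, Col3a1, Col1a2, Col12a1 and Col14a1 kept their direction and stayed short of the threshold in 15 of 16 alternatives. Col6a1 did so in all 16. Much of this tally could not have come out otherwise, so it is no measure of stability. The block, the methods' test adjusted and most omissions of a single array called 0 of all genes. Averaging rows left the members' values as they were, as 0 members had more than 1 row. A minimum log2 change can only remove calls. The 11 members with no group mean above background, none of them among those with a log2 change of at least 1, have only a bound on their level.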
